A study of Mus musculus with 20 samples.

Results

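Livers of db/db mice given pioglitazone were compared with livers of db/db mice given saline, across all genes that passed a filter on low counts. The comparison contrasts 8 of the 16 libraries with values, 4 from the pioglitazone group (PGZ) and 4 from the saline group (model). It covers 15744 of the 46078 genes in the table. Both groups are db/db mice, obese and diabetic animals whose leptin receptor (Lepr) is defective in every tissue, so what pioglitazone does in a liver with an intact receptor is not measured. PGZ mice received pioglitazone at 20 mg/kg and model mice received saline, for 12 weeks. The other 8 libraries came from saline-treated wild-type C57BL/6J mice (normal, 4 libraries) and from db/db mice given 200 mg/kg of an extract of Dendrocalamus latiflorus leaves (DLE, 4 libraries). They also entered the filter, the scaling and the estimate of spread behind the p-values. A further group, given white tea extract, was not analysed here. The labels state neither age nor sex, nor the background on which the db/db mutation was kept, and no lean littermate group is labelled. Nothing in the labels says whether mice shared a cage, day or batch, so p-values measure the spread between these libraries.

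Pioglitazone is a thiazolidinedione, a drug that binds and activates the nuclear receptor PPAR-gamma. PPAR-gamma is most abundant in adipose tissue, where it drives genes of fatty acid uptake, triglyceride storage and lipid droplet coating. It pairs with a retinoid X receptor and binds DNA as direct repeats of a short unit with a single base between them. Normal hepatocytes hold little of it, and fatty livers of obese mice hold more, together with lipid droplet genes otherwise typical of fat cells. PPAR-alpha, the related receptor of hepatocytes, binds the same kind of element and controls fatty acid oxidation in mitochondria and peroxisomes.

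The promoters of a called gene and of a gene with a copy of that element are shown, because Sdcbp2 had the smallest p of all genes tested and Aqp7 is an adipocyte-type gene, higher with pioglitazone, whose window holds a near match. Both are RefSeq windows on GRCm38.p6, 250 bases before to 50 bases after the start of transcription, read 5′ to 3′ on the gene's own strand. Capitals mark letters of the motif AGGTCANAGGTCA matched with up to 2 mismatches, and any exact single unit AGGTCA, on either strand.
Sdcbp2, chr2:151572373-151572672, plus strand: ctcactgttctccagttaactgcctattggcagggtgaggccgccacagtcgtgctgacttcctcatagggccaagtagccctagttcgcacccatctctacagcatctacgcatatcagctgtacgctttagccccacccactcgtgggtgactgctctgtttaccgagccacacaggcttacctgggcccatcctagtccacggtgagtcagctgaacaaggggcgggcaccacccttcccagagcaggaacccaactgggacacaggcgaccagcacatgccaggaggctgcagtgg
Aqp7, chr4:41047913-41048212, minus strand: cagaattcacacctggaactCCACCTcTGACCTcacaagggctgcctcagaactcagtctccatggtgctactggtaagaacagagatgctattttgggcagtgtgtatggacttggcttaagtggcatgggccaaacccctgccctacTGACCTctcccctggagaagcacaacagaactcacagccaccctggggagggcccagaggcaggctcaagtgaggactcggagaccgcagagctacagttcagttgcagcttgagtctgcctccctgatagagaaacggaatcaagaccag
The Aqp7 window held a repeat with 2 mismatches, read on the opposite strand, and a separate exact unit. In the Sdcbp2 window the closest position still had 4 mismatches and no exact unit was found. Over the 14206 promoters of genes tested, 3.22% held the motif with up to 2 mismatches, 0.0352% held it exactly and 13.6% held an exact unit, and over all 32851 promoters 3.86%, 0.0396% and 16.3% did. Among 271 promoters of genes with all 4 PGZ libraries above all 4 model libraries and an unadjusted p under 0.05, these shares were 2.95%, 0 and 12.5%. A match is a description of letters and not a binding site, and these windows do not cover distant elements.

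All 8 livers carried the marks of liver tissue, and 3 libraries stood apart in their inflammatory genes. The summed level of 13 hepatocyte markers lay between 34613 and 51418 CPM (counts scaled to library size) in the model libraries and between 63827 and 78244 CPM in the PGZ libraries. Albumin (Alb) made up most of this sum, at 20274, 32168, 31121 and 29932 CPM in model and 45177, 47766, 44705 and 56308 CPM in PGZ. The mean log2(CPM + 0.5) of the 13 markers overlapped, at 9.62 to 9.97 in model and 9.66 to 9.99 in PGZ. Their median log2 fold change was -0.01, with 6 markers above 0 and 7 below. Total counts were 17993327 to 25119799 per model library and 19332589 to 22415530 per PGZ library. Summed acute-phase genes reached 281168 CPM in model_327 and 132650 CPM in model_387, against 17707 and 30196 CPM in the other model libraries. In model_PGZ_328 they stood at 69935 CPM, against 15835 to 21230 CPM in the other PGZ libraries. Neutrophil markers summed to 2596 CPM in model_387 and to 550 CPM in model_PGZ_328, and to between 7.15 and 53.0 CPM in the other 6. Pairs of PGZ libraries correlated at 0.958 to 0.985 across genes and pairs of model libraries at 0.877 to 0.975. The share of counts from mitochondrial genes was 9.71% to 18.7% in model and 12.2% to 18% in PGZ.

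Few single genes passed the test, and many more separated the groups without passing it. With edgeR's quasi-likelihood test and Benjamini-Hochberg adjustment over all 15744 genes, 2 genes rose with pioglitazone (0.0127% of those tested), Sdcbp2 and Abcd2, and 0 fell (0%). At an unadjusted p under 0.05 there were 641 higher genes (4.07%) and 898 lower genes (5.7%), so 41.7% of them were higher. This split depended on the scaling, and with upper-quartile scaling it was 851 higher and 637 lower (57.2% higher). DESeq2 called 82 genes higher (0.546% of 15031 with an adjusted p) and 53 lower (0.353%), among them both edgeR genes. All 4 PGZ libraries lay above all 4 model libraries for 452 genes (2.87%) and below them for 316 (2.01%). The number of higher calls from edgeR was 1 without model_327, without model_PGZ_360, without model_PGZ_404 or without model_PGZ_408, and 5 without model_407. Without model_329, 3 were higher and 1 was lower. With both model_327 and model_387 left out, 1 gene was called higher and 3 lower. With model_PGZ_328 left out too, 20 were called higher and 43 lower.

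**Figure D1:**
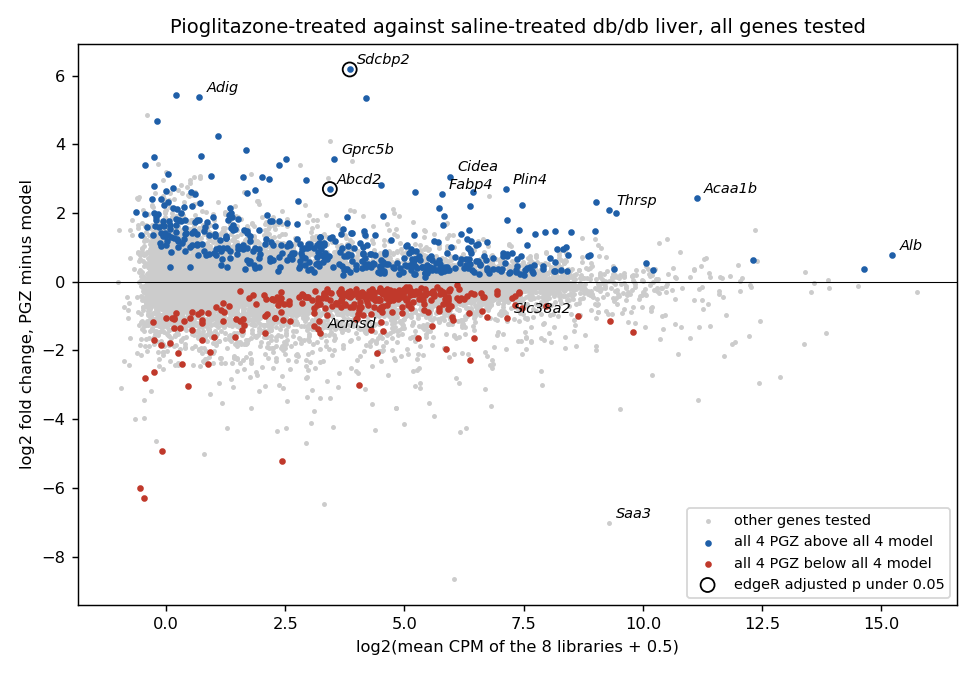
Each point is a gene tested. The horizontal axis is the log2 of the mean CPM of the 8 libraries plus 0.5, and the vertical axis is the log2 fold change of PGZ minus model from edgeR. Blue and red points are the 452 and 316 genes whose groups do not overlap, and circles mark the 2 genes past the adjusted p of 0.05, with Sdcbp2 at 6.18 and Abcd2 at 2.70.

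Sdcbp2 was nearly silent in saline-treated livers and readily detected in every pioglitazone-treated one. Sdcbp2 (ENSMUSG00000027456, chromosome 2, 151572622 to 151590005, GRCm38) encodes syntenin-2, a PDZ-domain protein that binds membrane phosphoinositides. Its level was 0.438, 0.43, 0.166 and 0.468 CPM in the model libraries, which is 4 to 11 reads each. In the PGZ libraries it was 20.2, 43.0, 28.1 and 18.8 CPM, or 413 to 1065 reads. The lowest PGZ library was far above the highest model library. The log2 fold change was 6.18 (SE 0.66), with an adjusted p of 0.00078 from edgeR's quasi-likelihood test. With any one library left out it stayed between 5.88 and 6.33, with adjusted p-values between 0.0021 and 0.0082, and without model_327 and model_387 it was 5.91 (adjusted p 0.017). Wild-type livers averaged 0.0744 ± 0.116 CPM (SD, n = 4) and DLE-treated db/db livers 1.22 ± 0.968 CPM (SD, n = 4). The difference between PGZ and DLE was also tested, and Sdcbp2 was the gene called there (0.00635% of genes tested), with a log2 difference of 4.49 and an adjusted p of 0.014. That call was lost without model_PGZ_360, model_PGZ_404 or model_DLE_401. No other GENCODE gene overlaps its coordinates.

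Abcd2 rose as well, but its call depended on the libraries used. Abcd2 (ENSMUSG00000055782, chromosome 15, 91145871 to 91191799) encodes a peroxisomal membrane transporter that carries very long-chain fatty acyl-CoA into the peroxisome. Model libraries held 1.31, 4.09, 2.94 and 2.64 CPM and PGZ libraries 9.57, 18.8, 23.7 and 19.5 CPM, with no overlap. The log2 fold change was 2.70 (SE 0.41), with an adjusted p of 0.04 from edgeR. The adjusted p was 0.055 without model_327, 0.078 without model_387 and 0.089 without model_407. It was 0.15 without model_PGZ_360, 0.22 without model_PGZ_404 and 0.17 without model_PGZ_408. With only the 8 PGZ and model libraries in the fit, the adjusted p from edgeR was 0.19. Its fold change without model_327 and model_387 was 2.42 (adjusted p 0.075). DLE livers averaged 8.46 ± 4.07 CPM (SD, n = 4), between the model mean of 2.74 and the PGZ mean of 17.9, and the log2 difference of PGZ from DLE was 1.08 (adjusted p 0.48). The related transporter gene Abcd3 stood at 157, 246, 114 and 280 CPM in model and 242, 317, 312 and 302 CPM in PGZ, with overlap.

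**Figure D2:**
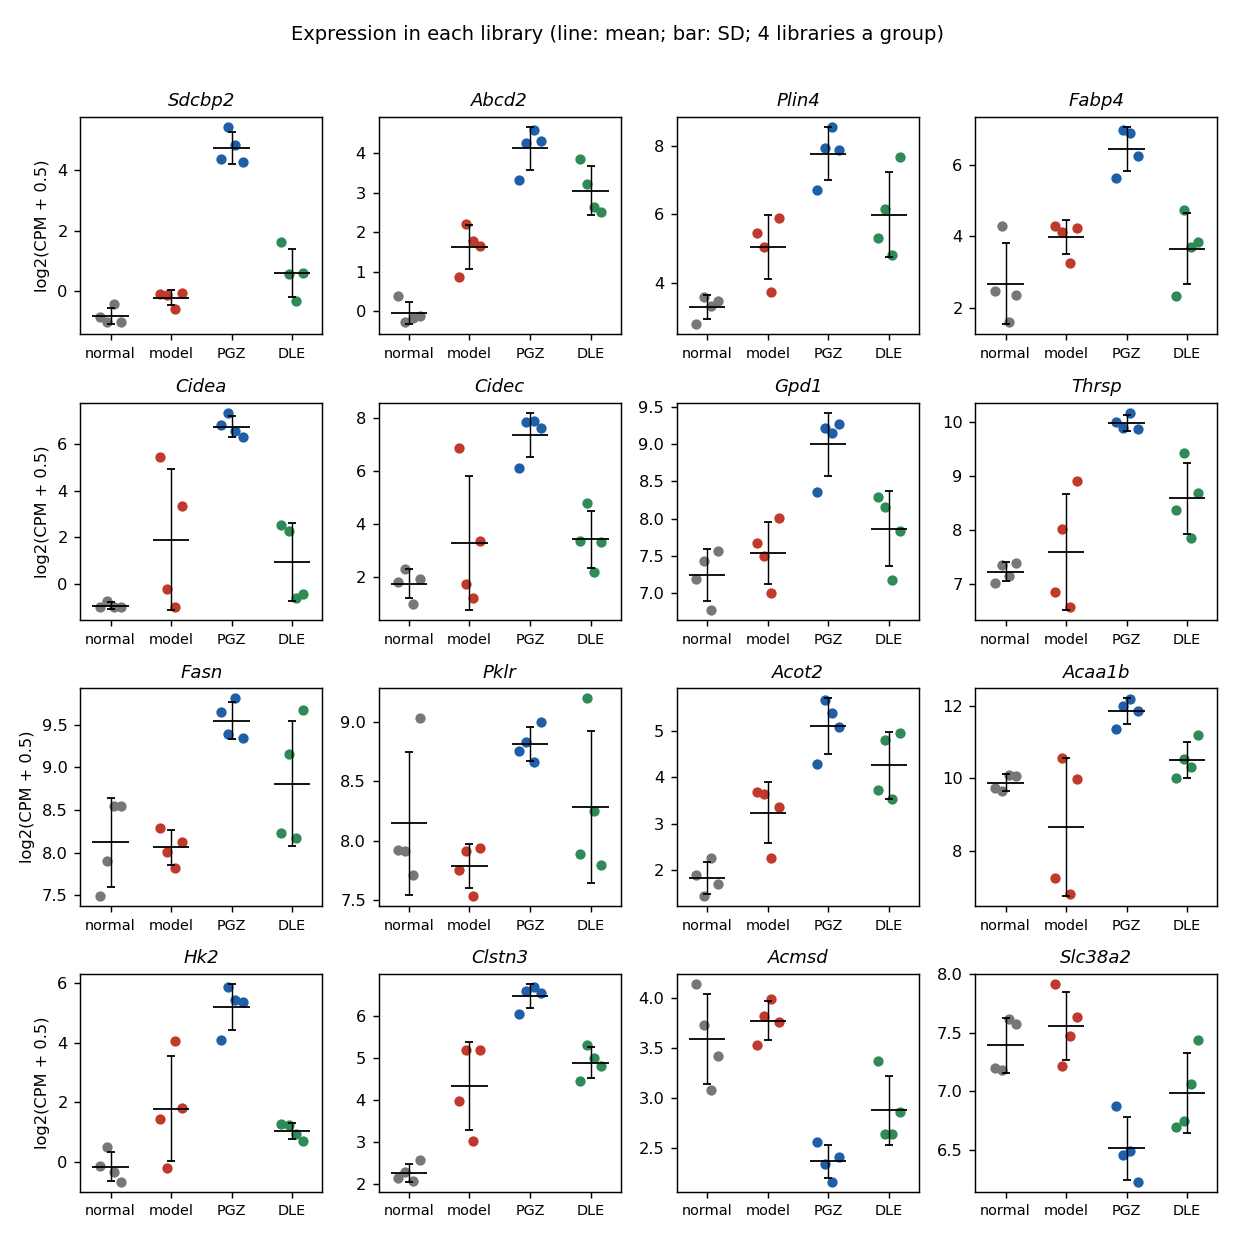
Each panel shows a gene in the 16 libraries of the 4 groups, as log2(CPM + 0.5) on the vertical axis. Points are libraries, horizontal lines are group means and bars are SDs. The PGZ points of Sdcbp2 and Abcd2 lie above every model point, those of Acmsd and Slc38a2 lie below, and those of Cidec overlap with the model group.

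The receptors of the drug's pathway differed little. Of 17 PPAR, RXR and coregulator genes tested, 0 were called, 1 had an unadjusted p under 0.05 in the higher direction and 1 in the lower, and their median log2 fold change was -0.03, against -0.09 over all genes tested. Pparg, the gene of the drug's target, stood at 17, 16.9, 10.9 and 15.7 CPM in model and 17.3, 24.0, 20.0 and 20.1 CPM in PGZ. Every PGZ value lay above every model value, but the margin was narrow and the log2 fold change was 0.43 (SE 0.24, adjusted p 0.58). Wild-type livers averaged 5.67 CPM of Pparg. Ppara was 10.2, 31.5, 11.6 and 25.3 CPM in model and 33.1, 29.8, 44.0 and 40.0 CPM in PGZ, a log2 fold change of 0.90 (adjusted p 0.43) with overlap. Med1, a Mediator subunit that binds nuclear receptors, was 24.4 to 26.4 CPM in model and 16.8 to 20.2 CPM in PGZ. Its groups did not overlap, and edgeR gave a log2 fold change of -0.51 (adjusted p 0.29) and DESeq2 an adjusted p of 0.033. Lepr, whose mutation defines the strain, was 3.33 to 7.88 CPM in model and 4.29 to 7.88 CPM in PGZ, and these reads do not test the mutation.

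Lipid droplet genes were mostly higher with pioglitazone, in whole-liver RNA where more cells of a type and more RNA per cell cannot be told apart. Of 14 lipid droplet coat and fusion genes tested, 0 were called, 8 had an unadjusted p under 0.05 and a higher level, and 5 separated the groups. The median log2 fold change was 0.89. Of all genes tested, 4.07% were higher and 5.7% lower at that p, and 2.87% had all PGZ above all model. These shares are the background for the lists that follow. In the fit without model_327 and model_387, 716 and 934 of 16372 genes were higher and lower at that p. With model_PGZ_328 left out too, these were 856 and 1214 of 16309. Without model_PGZ_360 they were 423 and 554 of 15957, and without model_PGZ_328 alone 802 and 1165 of 16010. Without model_327 and model_387, 8 droplet genes were again higher at that p, against 716 of all 16372 genes, and the median was 0.83. Plin4, a perilipin that coats droplets, was 43.0, 32.8, 12.8 and 59.5 CPM in model and 104, 247, 378.1 and 236 CPM in PGZ. This is a log2 fold change of 2.70 (SE 0.59), with an adjusted p of 0.14 from edgeR and 0.00057 from DESeq2. G0s2, an inhibitor of the triglyceride lipase ATGL, was 51.9 to 169 CPM in model and 302 to 406.9 CPM in PGZ. Fitm2, an endoplasmic reticulum protein needed to form droplets, was 14.2 to 29.6 CPM in model and 33.6 to 52.6 CPM in PGZ.

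The droplet fusion genes Cidea and Cidec varied widely among the saline-treated livers. Cidea was 42.5, 0.376, 0 and 9.74 CPM in model and 110, 161, 92.3 and 76.5 CPM in PGZ. All PGZ livers held more than any model liver, yet the adjusted p was 0.46 (log2 fold change 3.06, SE 1.24), and DESeq2 gave 0.44. With a library left out the fold change ranged from 2.65 without model_387 to 5.01 without model_327. Cidec was 116, 2.80, 1.82 and 9.65 CPM in model and 68.9, 233, 238 and 197 CPM in PGZ, so model_327 overlapped with model_PGZ_328. B430212C06Rik, opposite Cidea over 500 bases, averaged 0.806 CPM in model and 8.54 CPM in PGZ. Both genes were near 0 in the wild type, with means of 0.0269 CPM for Cidea and 3.03 CPM for Cidec, and low with DLE, with means of 2.49 and 12.7 CPM. Plin2, another droplet coat gene, overlapped at 156 to 989 CPM in model and 333 to 877 CPM in PGZ.

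Genes of the adipocyte-type list were also mostly higher, while the defining adipocyte hormones were not detected in most libraries. Of 15 adipocyte-type genes tested, 7 were higher at an unadjusted p under 0.05, against 4.07% of all genes tested. All PGZ values lay above all model values for 5, against 2.87%. The median log2 fold change was 1.24. The list also holds genes well expressed in wild-type liver, such as Gpd1 (mean 154 CPM), which is counted under triglyceride assembly too. Fabp4, the adipocyte fatty acid-binding protein, was 19.1, 17, 9.15 and 18.4 CPM in model and 49.7, 127, 119 and 75.8 CPM in PGZ. The log2 fold change was 2.55 (SE 0.59), with an adjusted p of 0.15 from edgeR and 0.0014 from DESeq2. Cfd, the complement protease adipsin, was 2.29, 0, 0 and 1.11 CPM in model and 53.3, 22.5, 16.3 and 47.3 CPM in PGZ (adjusted p 0.37). One normal library also held 142 reads of Cfd. Aqp7, a glycerol channel, was at most 0.699 CPM in model and 1.06 to 2.70 CPM in PGZ. Adig, an adipogenesis factor chosen after its values were seen, had 4 reads in the model group, all in model_327, and 35 to 68 reads per PGZ library. Adipoq was at 0 CPM in every model library and in 3 PGZ libraries, and at 0.182 CPM in model_PGZ_408. Lep and Plin1 were at 0 in all 8.

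Fatty acid uptake and triglyceride assembly were less uniform. Of 18 uptake and activation genes, 4 were higher at an unadjusted p under 0.05 (median log2 fold change 0.57), and of 17 assembly genes 3 were (median 0.13). Cd36, a fatty acid transporter and textbook PPAR-gamma target, overlapped at 247, 120, 64.0 and 146 CPM in model and 128, 232, 249 and 247 CPM in PGZ. In wild-type livers its mean was 5.30 CPM. Gpd1, which makes the glycerol backbone of triglyceride, was 128 to 257 CPM in model and 326.9 to 615 CPM in PGZ. Its log2 fold change was 1.45 (SE 0.30), with an adjusted p of 0.12 from edgeR and 0.0006 from DESeq2. An antisense gene, Gm16537, overlaps it over 6960 bases and averaged 42.5 CPM in model and 121 CPM in PGZ, and reads of the pair cannot be told apart without strand. Gpam, which attaches the first acyl chain, was 10.5 to 30.5 CPM in model and 39.1 to 73.5 CPM in PGZ. Mogat1, a monoacylglycerol acyltransferase, overlapped at 0.207 to 8.71 CPM in model and 6.45 to 18.4 CPM in PGZ. Pnpla2, the triglyceride lipase ATGL, was 74.0 to 103 CPM in model and 123 to 166 CPM in PGZ, a log2 fold change of 0.70 (SE 0.16, DESeq2 adjusted p 0.0011).

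Many fatty acid synthesis enzymes stood higher with pioglitazone. Of 23 genes tested, 0 were called. At an unadjusted p under 0.05, 10 were higher and 2 lower, against 4.07% and 5.7% of all genes tested. For 9 every PGZ value lay above every model value, against 2.87% of all genes. The median log2 fold change of the 23 was 0.73. Without model_327 and model_387 it was 0.84, with 13 higher and 1 lower, against 716 and 934 of all 16372 genes. Acly, which supplies cytosolic acetyl-CoA, was 45.0 to 69.7 CPM in model and 103 to 139 CPM in PGZ. Acaca, acetyl-CoA carboxylase, was 49.3, 66.3, 61.4 and 59.6 CPM in model and 148, 119, 130 and 106 CPM in PGZ. Fasn, fatty acid synthase, was 313, 256, 225 and 279 CPM in model and 802, 670, 899 and 651 CPM in PGZ. The log2 fold changes were 1.06, 1.09 and 1.49 for Acly, Acaca and Fasn, and DESeq2 called all 3 (adjusted p 0.017, 0.0011 and 0.0019). Thrsp, a regulator of lipid synthesis, was 95.1 to 477 CPM in model and 927 to 1150 CPM in PGZ, a log2 fold change of 2.09 (SE 0.44, DESeq2 adjusted p 0.00055). Without model_407, the model library with the most Thrsp, it was 2.67 and edgeR called it (adjusted p 0.033). That removal by itself widens the difference. Scd1, the main desaturase, overlapped because of model_327, at 8083, 655, 531 and 1653 CPM in model and 9722, 5564, 9376 and 6209 CPM in PGZ. Srebf1, the transcription factor gene of this pathway, also overlapped, at 43.2 to 300 CPM in model and 218 to 297 CPM in PGZ.

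Among glucose genes Hk2 and Pklr separated the groups. Hk2, a hexokinase usually low in liver, was 2.24, 0.376, 16.2 and 3.06 CPM in model and 16.3, 57.2, 42.4 and 40.8 CPM in PGZ, so the groups nearly touched. The log2 fold change was 2.83 (SE 0.75), with an adjusted p of 0.27 from edgeR and 0.014 from DESeq2. Without model_387, the model library with the most Hk2, it was 4.35 and edgeR called it (adjusted p 0.023). That removal by itself widens the difference, so the call is no separate support. DLE livers averaged 1.60 CPM of Hk2, and the log2 difference of PGZ from DLE was 4.61 (adjusted p 0.17). Pklr, liver pyruvate kinase, was 185 to 245 CPM in model and 404.5 to 512 CPM in PGZ, and it shares 711 bases with Hcn3. Over all 27 glycolysis and fructose genes the median log2 fold change was -0.04. Of 17 gluconeogenic genes 1 was higher and 2 were lower at an unadjusted p under 0.05, with a median of -0.26. Without model_327 and model_387 there were 1 higher and 8 lower, against 716 and 934 of all 16372 genes. The gluconeogenic median was then -0.49, and the glycolysis median became 0.30. Pck1 overlapped at 912 to 2879 CPM in model and 1459 to 1864 CPM in PGZ, and G6pc at 16.1 to 500 CPM and 127 to 212 CPM. Tat, which breaks down tyrosine and is in the same list, was 1932, 990, 938 and 1311 CPM in model and 924, 266, 304 and 390 CPM in PGZ, lower in all 4 (log2 fold change -1.46, adjusted p 0.36).

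Peroxisomal genes other than Abcd2 stood higher as well. Of 24 peroxisomal and omega oxidation genes, 1 was called. At an unadjusted p under 0.05, 10 were higher and 1 lower, against 4.07% and 5.7% of all genes tested. The groups were separated for 7, with PGZ above, against 2.87% of all genes, and the median log2 fold change was 0.53. The median was 0.26 without model_327 and model_387, with 7 higher and 3 lower, against 716 and 934 of all 16372 genes. Acaa1b, a peroxisomal thiolase, was 151, 1518, 110 and 1003 CPM in model and 2623, 4069, 4702 and 3725 CPM in PGZ. It has a close relative, Acaa1a, and overlaps Dlec1 by 224 bases. Dlec1 showed the same order of libraries, with 30.3, 394, 23.7 and 241 CPM in model and 612, 893, 1150 and 807 CPM in PGZ. Pex11a, which helps peroxisomes divide, was 67.6 to 144 CPM in model and 160 to 442 CPM in PGZ. Ehhadh, the bifunctional enzyme of peroxisomal oxidation, was 27.2 to 140 CPM in model and 206 to 309 CPM in PGZ. Cyp4a14, an omega hydroxylase and PPAR-alpha target, overlapped at 31.5 to 923 CPM and 568 to 953 CPM.

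Among mitochondrial oxidation genes the thioesterase gene Acot2 had the smallest p. Of 22 genes tested, 5 were higher at an unadjusted p under 0.05 and the median log2 fold change was 0.24, with 2 higher once model_PGZ_360 was left out. Acot2, which releases free fatty acids from acyl-CoA in mitochondria, was 12.4, 11.9, 4.31 and 9.74 CPM in model and 19.0, 50, 41.5 and 33.5 CPM in PGZ. The log2 fold change was 1.91 (SE 0.39), with an adjusted p of 0.12 from edgeR and 0.0011 from DESeq2. Its neighbour Acot5, a peroxisomal relative in the same gene cluster, had 2 reads in the 4 model libraries and 118 in the 4 PGZ libraries. The ratio was 56.6, with an exact 95% counting interval of 15.3 to 473. That interval pools the reads of a group and leaves out the spread between mice. EdgeR did not call Acot5 (log2 fold change 5.45, SE 1.04, adjusted p 0.12), and DESeq2 gave no adjusted p. Reads that match several near-identical genes of this cluster may have been divided between them. Acot13, a thioesterase outside the cluster, was 43.8 to 90.4 CPM in model and 128 to 185 CPM in PGZ. Pdk4, which holds back glucose oxidation, overlapped at 2.36 to 23.7 CPM and 12.7 to 67.4 CPM, as did Angptl4, an inhibitor of lipoprotein lipase, at 63.8 to 166 CPM and 114 to 184 CPM. Fgf21, a hepatokine, was 35.9 CPM in model_327 and 0.968 to 2.78 CPM in the other model libraries, against 2.07 to 12.7 CPM in PGZ. Its log2 fold change was -0.40 with all 8 libraries and 2.32 without model_327 and model_387. Ucp2, a mitochondrial carrier, overlapped at 26.8 to 151 CPM and 52.5 to 91.0 CPM.

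**Figure D3:**
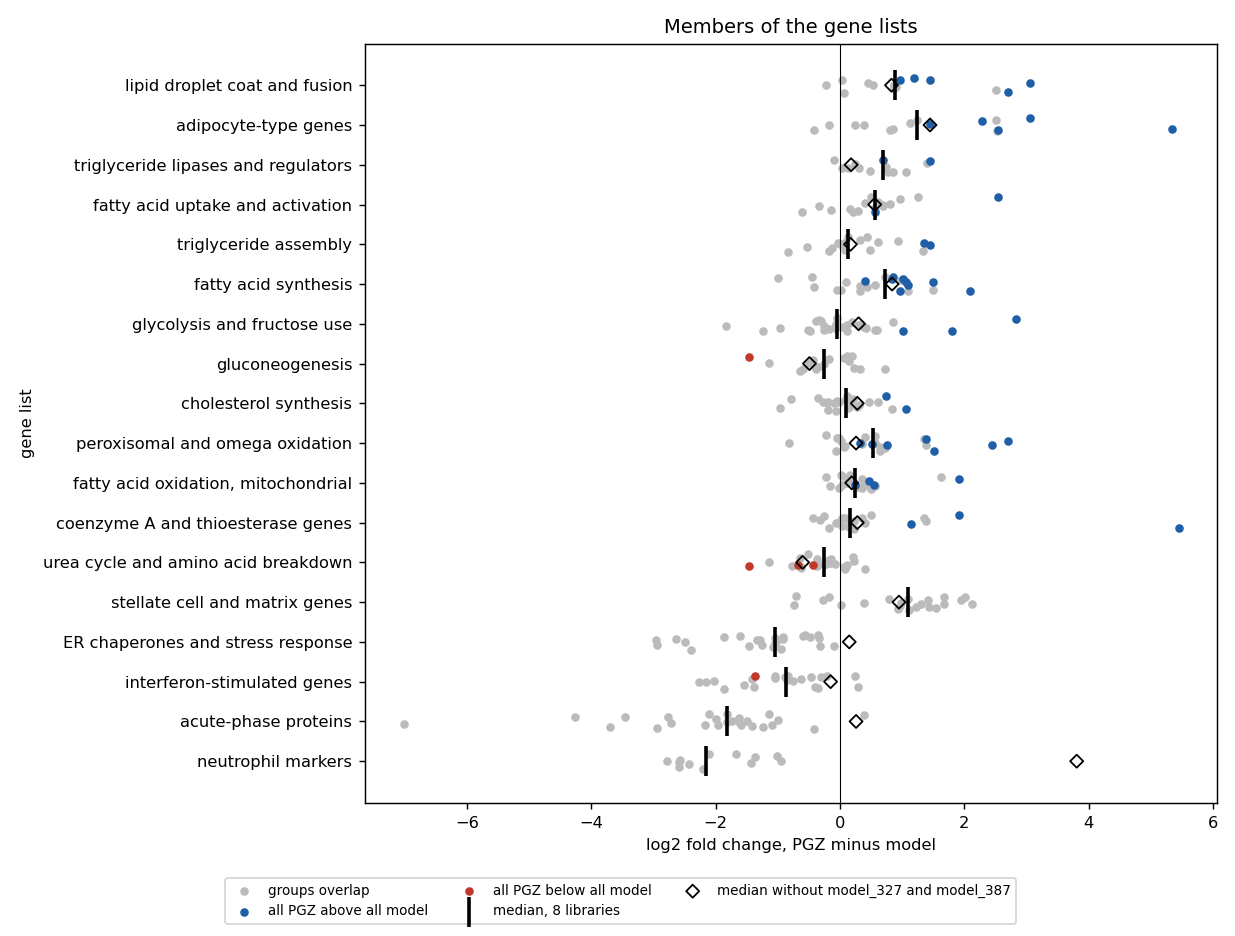
Each row is a gene list and each point a tested member, at its log2 fold change of PGZ minus model. Blue and red points are members whose groups do not overlap, black bars are medians over the 8 libraries, and diamonds are medians without model_327 and model_387. The lipid droplet median moved from 0.89 to 0.83 and the acute-phase median from -1.81 to 0.26.

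Other genes that separated the groups, chosen after their values were seen, include several not known mainly from lipid metabolism. Clstn3, a calsyntenin, was 15.2, 35.8, 7.66 and 36.3 CPM in model and 65.9, 96.0, 103 and 93.7 CPM in PGZ (log2 fold change 1.92, DESeq2 adjusted p 0.00054). Chrna2, a nicotinic acetylcholine receptor subunit, was 0.58 to 2.58 CPM in model and 5.65 to 6.83 CPM in PGZ. Both were higher in every treated liver than in any saline-treated one. Slc24a3, a sodium, potassium and calcium exchanger, was 0.146 to 0.58 CPM in model and 0.673, 6.82, 4.93 and 7.75 CPM in PGZ. Its highest model library, model_387, and its lowest PGZ library, model_PGZ_328, each held 14 reads, so their order rests on the scaling. Gprc5b, an orphan receptor, was 0.936 to 2.87 CPM in model and 4.47, 23.6, 25.8 and 27.5 CPM in PGZ. Osbpl3, an oxysterol-binding protein relative, was 2.19 to 16.8 CPM in model and 24.3, 75.0, 76.2 and 77.0 CPM in PGZ. Gprc5b overlaps Iqck on the opposite strand by 606 bases, and Iqck averaged 0.753 CPM in model and 6.33 CPM in PGZ. For all 3, model_PGZ_328 was by far the lowest of the treated livers. It was also the lowest PGZ library in 229 of the 452 genes with PGZ above model (50.7%), against 31.8% of all genes tested.

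Enzymes and transporters were among these genes too. Csad, which makes the precursor of taurine, was 20.5, 10.3, 29.0 and 16.7 CPM in model and 50.6, 93.5, 101 and 97.7 CPM in PGZ. Slc25a10, the mitochondrial dicarboxylate carrier, was 95.2 to 205 CPM in model and 299.9 to 477 CPM in PGZ. Mgst3 and Gstm3, glutathione transferases, were 11.0 to 44.7 and 25.5 to 108 CPM in model and 65.7 to 207 and 140 to 509 CPM in PGZ. Mgst3 was called by edgeR without model_329, its highest model library (log2 fold change 3.06, adjusted p 0.049), a removal that by itself widens the difference. Of the 25 glutathione and NRF2 genes tested, 5 were higher and 2 lower at an unadjusted p under 0.05 (median log2 fold change 0.23). Without model_327 and model_387 there were 3 and 1 (median -0.05), and without model_PGZ_360 2 and 3. Hes1, a transcriptional repressor downstream of Notch, was 8.78 to 11.6 CPM in model and 14.8 to 31.6 CPM in PGZ. The paraspeckle RNA Neat1 was 76.9, 281, 440 and 315 CPM in model and 728, 1107, 1175 and 1440 CPM in PGZ, near its wild-type mean of 1271 CPM. Rufy4, an autophagy-related protein, was 0.323 to 1.12 CPM in model and 7.60 to 11.7 CPM in PGZ.

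Of the genes lower with pioglitazone, Acmsd came closest to the threshold. Acmsd, whose enzyme diverts tryptophan breakdown away from NAD synthesis, was 11.0, 13.6, 15.4 and 13.0 CPM in model and 5.39, 4.56, 3.96 and 4.79 CPM in PGZ. The log2 fold change was -1.5 (SE 0.25), with an adjusted p of 0.085 from edgeR and 4e-05 from DESeq2. Without model_327 and model_387 it was again -1.5. Slc38a2, an amino acid transporter, was 241, 148, 177 and 198 CPM in model and 117, 87.2, 89.1 and 74.2 CPM in PGZ. Tuba4a, an alpha-tubulin, was 105 to 163 CPM in model and 56.5 to 78.0 CPM in PGZ. Pde4b, a cyclic AMP phosphodiesterase, was 17.6 to 47.9 CPM in model and 8.45 to 13.0 CPM in PGZ. None of these groups overlapped, and DESeq2 called all 4 lower. DLE livers held 5.7 to 9.8 CPM of Acmsd, 102.8 to 173.4 of Slc38a2, 78.4 to 121.1 of Tuba4a and 6.7 to 10.7 of Pde4b. Wild-type livers held 7.9 to 17.1, 144.8 to 195.5, 94 to 142 and 9.1 to 14.5 CPM of them. Low levels of Pde4b were thus not particular to PGZ. Apol9b, of the apolipoprotein L family, was 108 to 200 CPM in model and 31.5 to 53.0 CPM in PGZ, with reads possibly shared with the near-identical Apol9a. These lower genes were chosen after their values were seen. Of 25 urea cycle and amino acid breakdown genes, 3 were lower at an unadjusted p under 0.05 with all libraries and 12 without model_327 and model_387. Over all genes, 898 of 15744 and 934 of 16372 were lower in these fits. The medians of the list were -0.26 and -0.60.

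Some transporter and drug-metabolism genes were high in model_329 and model_407 and low in the other saline-treated livers. Slco1a1, an organic anion transporter, was 0.34, 20.0, 3.35 and 16.5 CPM in model and 1.15, 2.58, 3.13 and 2.42 CPM in PGZ. The model libraries with the most acute-phase RNA, model_327 and model_387, were the low ones. Without them the log2 fold change of Slco1a1 was -2.97 with an adjusted p of 0.00031 from edgeR, against -2.11 and 0.40 with all. Cyp2c37, a drug-metabolising cytochrome, was 81.2, 653, 82.3 and 425 CPM in model and 77.3 to 109 CPM in PGZ, and it was called without the 2 libraries (-2.52, adjusted p 0.0085). Cyp2a5 was the third gene called there (-2.15, adjusted p 0.043), and was chosen for that reason. That fit rests on 2 saline-treated livers, assumed to vary like the other groups. Leaving out the model libraries where these genes were low by itself widens the drop, so these calls are no separate support. Sult2a7, a sulfotransferase, was 7.49, 263, 39.3 and 229 CPM in model and 1.23 to 19.6 CPM in PGZ. Cyp2c69 was 1.8, 199, 3.60 and 31.1 CPM in model and 2.62 to 3.74 CPM in PGZ. The Cyp2c and Sult2a families hold near-identical copies, so their counts are uncertain. Cyp7a1, the rate-limiting enzyme of bile acid synthesis, overlapped at 0.0973 to 89.2 CPM and 20.2 to 61.0 CPM.

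Inflammatory and stress genes were lower on average, and this came with the 2 model libraries that stand apart. Of 25 acute-phase genes, 15 were lower at an unadjusted p under 0.05, against 5.7% of all genes tested, and 0 separated the groups. The median log2 fold change was -1.81. Without model_327 and model_387 the count was 0 and the median 0.26, and with model_PGZ_328 left out too the count was 1 and the median -0.60. With a single library left out, the count was 7 without model_PGZ_360 and 23 without model_PGZ_328. Over all genes, 554 of 15957 and 1165 of 16010 were lower in these fits. Saa3, an inducible serum amyloid gene, was 3148, 2.69, 1783 and 24.2 CPM in model and 22, 7.66, 4.93 and 3.56 CPM in PGZ. DESeq2 called Saa3 (adjusted p 2.3e-05) and edgeR did not (0.14), and its log2 fold change was -7.02 with all libraries and -0.50 without those 2. Saa1 was 27783, 94.9, 10191 and 1360 CPM in model and 4567, 168, 73.5 and 279 CPM in PGZ. Lcn2, the iron-scavenging lipocalin, was 49.9 to 11948 CPM in model and 50.8 to 1112 CPM in PGZ. Both overlapped widely.

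Interferon-stimulated genes followed the same pattern less strongly. Of 22, 11 were lower at an unadjusted p under 0.05, against 5.7% of all genes tested, and the median was -0.87. Without model_327 and model_387 these were 1 and -0.15. There were 6 lower without model_PGZ_328 and 7 without model_PGZ_360. Irgm1, an interferon-induced GTPase, was 232, 40.8, 324 and 58.6 CPM in model and 38.5, 24.6, 51.5 and 45.6 CPM in PGZ. Gbp10, a guanylate-binding protein chosen after its values were seen, separated the groups at 6.24 to 70.8 CPM in model and 2.02 to 4.70 CPM in PGZ, with near-identical relatives. Of 25 endoplasmic reticulum chaperone and stress genes, 13 were lower and the median was -1.05, against 1 and 0.15 without the 2 libraries. Hyou1, a chaperone, was 627 CPM in model_327, 37.1 to 70.5 CPM in the other model libraries and 25.2 to 38.4 CPM in PGZ. Kupffer cell markers gave a median of -0.72 over 14 genes, and 0.06 without both libraries, but -0.35 with 3 lower at an unadjusted p under 0.05 when model_PGZ_328 was left out as well. Adgre1, the macrophage marker F4/80, was 28.2 CPM in model_387, 2.15 to 6.89 CPM in the other model libraries and 1.64 to 4.57 CPM in PGZ. Of 12 neutrophil markers tested, 0 passed an unadjusted p of 0.05, and their median was -2.15 with all libraries and 3.81 without those 2, when model_PGZ_328 was the highest. Without model_PGZ_328, all 12 were lower at an unadjusted p under 0.05 (median -5.58), as were 1165 of all 16010 genes tested in that fit. Without all 3 libraries the median of the 11 that could be tested was 0.40. What part these cells had in the other values was not tested.

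**Figure D4:**
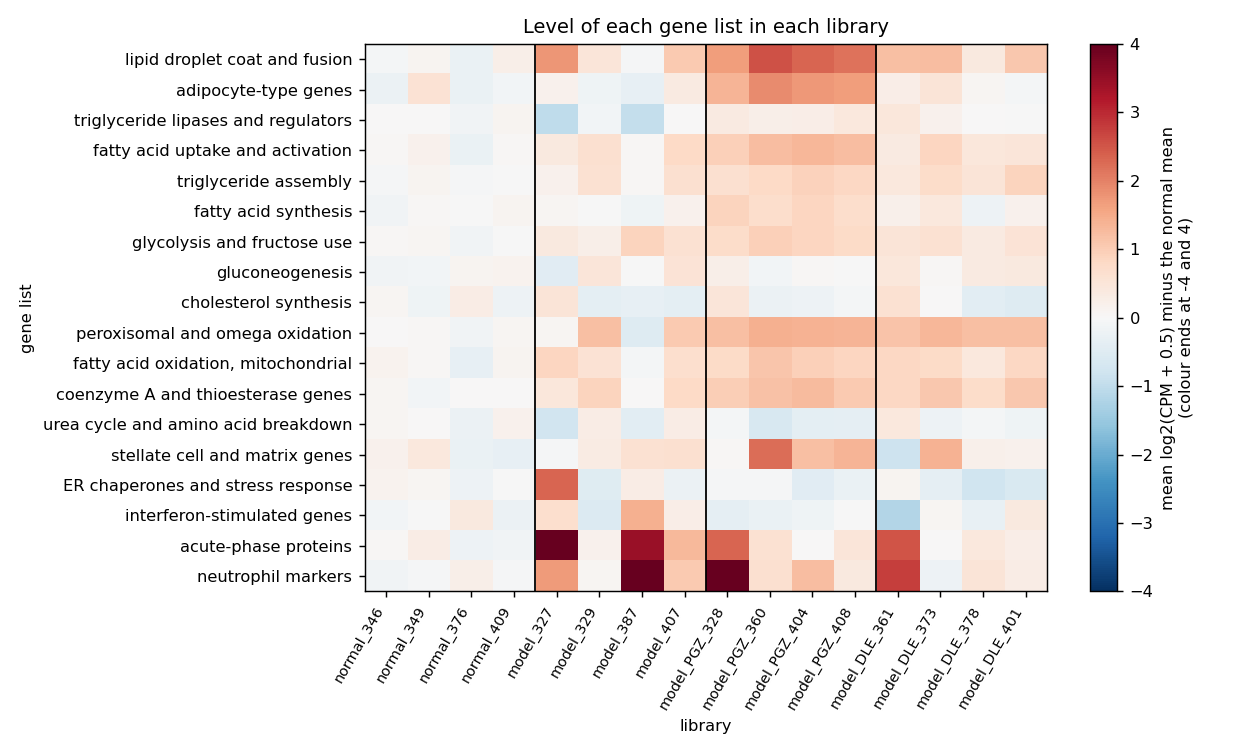
Rows are gene lists and columns are the 16 libraries. Colour is the mean log2(CPM + 0.5) of a list's members in that library minus the mean over the 4 normal libraries. The adipocyte-type row is higher in every PGZ library than in any other library. Its summed level overlapped, at 1561 to 5013 CPM in model, 3403 to 6298 CPM in PGZ and 3759 to 6452 CPM in normal. The lipid droplet row is mostly higher in PGZ, but mean log2(CPM + 0.5) was 6.28 in model_327 and 6.2 in model_PGZ_328. The acute-phase row is highest in model_327 and model_387, with summed levels of 281168 and 132650 CPM.

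The median matrix gene was higher with pioglitazone, but the summed level overlapped and the counts depended on the libraries used. Summed levels were 986 to 2236 CPM in model and 1029 to 1724 CPM in PGZ. The mean log2(CPM + 0.5) was 2.91 in model_PGZ_328, below model_329, model_387 and model_407 at 3.17, 3.46 and 3.5. Of 22 stellate cell and matrix genes, 9 were higher and 1 lower at an unadjusted p under 0.05, against 4.07% and 5.7% of all genes tested. The groups were separated for 0 and the median log2 fold change was 1.10. Without model_PGZ_360 no gene passed in either direction (0 and 0) and the median was 0.71. Without model_327 and model_387 there were 2 higher and 0 lower, against 716 and 934 of all 16372 genes. Col1a2, a chain of type I collagen, was 5.06, 9.90, 13.0 and 15.2 CPM in model and 7.07, 107, 25.1 and 34.3 CPM in PGZ, highest in model_PGZ_360. Of 28 cell cycle genes 1 was higher, Ccnd1 (cyclin D1), at 9.68 to 23.9 CPM in model and 15.5, 60.4, 86.3 and 56.1 CPM in PGZ. Without model_327 and model_387, 6 were higher, against 716 of all 16372 genes. Ccnd1 overlaps LTO1 on the opposite strand. Cholesterol synthesis gave 2 higher and 0 lower of 24 (median 0.10, and -0.15 without model_PGZ_328). The one with the smaller p was Sc5d, a late enzyme of the pathway, at 83.2 to 153 CPM in model and 238 to 272 CPM in PGZ.

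Levels beside the other groups differed by gene. Wild-type means were far below the PGZ means for Plin4 (9.48 CPM against 241), Acot2 (3.12 against 36.0) and Clstn3 (4.36 against 89.7). For Fasn and Acaca the wild-type means of 292 and 73.8 CPM were close to the model means of 268 and 59.2 CPM. DLE livers, which came from db/db mice as well, averaged 85.4 CPM of Plin4, 14.3 CPM of Fabp4, 494 CPM of Fasn and 20.4 CPM of Acot2. The log2 differences of PGZ from DLE were 1.5, 2.70, 0.61 and 0.82 for these 4, with adjusted p-values of 0.48, 0.31, 0.54 and 0.51. With edgeR, Sdcbp2 was the one named gene called between the treatments, which does not show that they act alike elsewhere. DESeq2 calls between these treatments were read only for the 45 named genes chosen by rule, not for those chosen after their values were seen. Among the 45 it called 4 more, with Fabp4, Cidec and Gpd1 higher with PGZ than with DLE (adjusted p 0.0012, 0.037 and 0.04). Cyp2c37 was lower (0.0012). The share of all genes that DESeq2 calls in this contrast was not counted, so the 4 have no background.

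**Figure D5:**
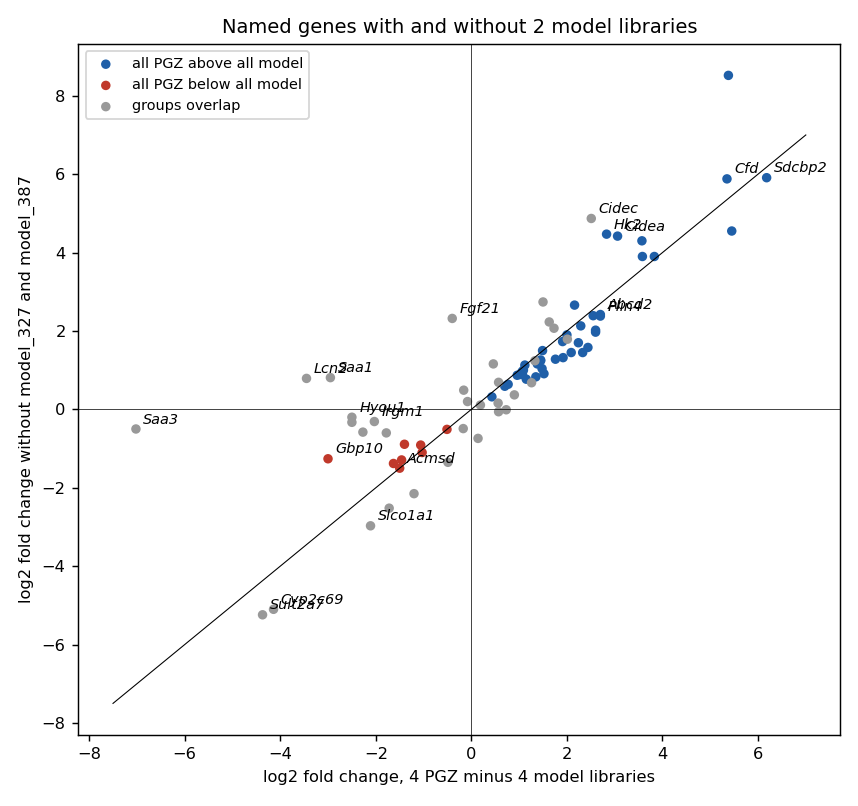
Each point is a named gene, with the log2 fold change of PGZ minus model over all 8 libraries on the horizontal axis and without model_327 and model_387 on the vertical axis. The line marks equal values. Sdcbp2 (6.18 and 5.91) and Acmsd (-1.5 in both) lie near it, while Saa3 (-7.02 and -0.50) and Fgf21 (-0.40 and 2.32) lie far from it.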

How the data were processed

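Liver RNA was sequenced in 16 libraries with values. The comparison contrasts 8 of them, and all 16 entered the filter, the scaling and the estimate of spread. The authors deposited raw gene counts, which are whole numbers indexed by Ensembl identifier. Per the submitters' processing notes, the genome build was GRCm38 and the tools included HISAT2 2.1.0 and StringTie 1.3.3b. DESeq2 1.28.0 was also listed, as were FastQC 0.11.5 and CASAVA 1.8.2, without roles. No source used here states the annotation, the strand setting or how reads with several matches were counted. Symbols came from GENCODE M21, which matched 45143 of 46078 genes.

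Genes were filtered with filterByExpr, scaled by TMM and fitted in edgeR 4.0.16 (R 4.3.3) with robust quasi-likelihood dispersions over 4 groups, which share an estimate of the spread. P-values are two-sided and adjusted by Benjamini-Hochberg over all genes, and calls required an adjusted value below 0.05. Fold changes and SEs are edgeR's, and CPM are after TMM scaling. DESeq2 1.42.0, limma 3.58.1 (voom with quality weights) and other settings were alternatives. Replicates of a group were compared before use, and each counted as a separate sample. The procedure was tested on simulated data. Figures used Python 3.11.15.

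The gene lists and genes were chosen with earlier results of these data known. Named genes were called genes, list members with the smallest p, and a fixed list of lipid, glucose and inflammation genes, and others are said to be chosen after their values were seen, as were G0s2, Fitm2, Acly, Thrsp, Acaa1b, Dlec1, Pex11a, Ehhadh, Acot13, Pklr, Hk2, Cfd, Aqp7, Abcd3, Sult2a7 and Alb. Some genes that the rule or the lists hold are not reported here. RefSeq promoter entries were found for 65 of 82 named genes.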

Additional observations from a re-analysis of the deposited data

Results flagged for a closer look

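In groups of 4 libraries, a library was marked where its gap to the nearest other one on the log2(CPM + 0.5) scale, as a share of the group's range, passed Dixon's critical value. Of 164 groups tested, 16 were marked (9.76%), and chance marks about 1 in 20. The most frequent was model_PGZ_328, lowest of the PGZ libraries for 7 genes, with Cd36 at 128.4 CPM, Cidec at 68.9, Gpd1 at 326.9, Acsl1 at 380.1, Gprc5b at 4.47, Csad at 50.6 and Osbpl3 at 24.3 CPM. Next came model_387, lowest of the model libraries for Sdcbp2 at 0.166 CPM, Fabp4 at 9.15, G0s2 at 51.9 and Pex11a at 67.6 CPM, and highest for Apol9b at 199.6 CPM. The remaining marks were Alb at 20274 CPM, lowest in model_327, Adig at 0.195 CPM, highest in model_327, Acot5 at 0.108 CPM, highest in model_329, and Lepr at 7.88 CPM, highest in model_PGZ_404. The marks of Sdcbp2, Adig and Acot5 lie among model libraries with few or no reads.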

How the results depend on the processing

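Sdcbp2 was called under every alternative run, with adjusted p-values up to 0.017, and the count of calls was not stable. Genes called higher numbered 1 with only the 8 libraries, 1 with glmTreat, 82 with DESeq2, 760 with limma voom, 1 to 5 with a library left out, 1 without model_327 and model_387 and 20 without these and model_PGZ_328. Genes called lower numbered 53 with DESeq2, 838 with limma voom, 0 to 1 with a library left out, and 3 and 43 in the last 2 fits. Limma voom was run with quality weights, which give each library its own weight. Members of the gene lists called numbered 1, and 0 with only the 8 libraries, 0 with glmTreat, 28 with DESeq2, 155 with limma voom, 0 to 1 with a library left out, and 3 and 12 in the last 2 fits. Over all genes, DESeq2 called 135 of 15031 and limma voom 1598 of 15744. The different list members tested were not counted, so their share was not set against that of all genes. DESeq2 itself called 157 higher and 204 lower without model_PGZ_328, 120 lower without model_327 and model_387, and 30 lower with only the 8 libraries, alternatives chosen after seeing the data. Both DESeq2 and limma voom called 110 genes, of 135 and 1598. Of the 45 named genes chosen by rule, those called between PGZ and DLE numbered 1, and 5 with DESeq2 or 0 to 1 with a library left out. The median of all genes was -0.09, and 0.03 without model_327 and model_387.

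Genes near 0 or high in single libraries changed sign. Without model_327 and model_387, and then without model_PGZ_328 too, PGZ versus model was 0.20 and 0.27 for Lepr, -0.06 and -0.12 for Srebf1, 2.32 and 2.64 for Fgf21, 0.49 and 0.55 for Ucp2, and -0.74 and -1.02 for Cyp7a1. In the first of these fits it was -0.01 for Cyp4a14, 0.81 for Saa1 and 0.79 for Lcn2, and in the second it was 0.10, -2.07 and -0.66. Limma voom gave 1.86 for Fgf21, 0.02 for Ucp2 and -0.23 for Cyp7a1, and upper-quartile scaling 0.01 for Lepr. With a library left out the ranges were -0.33 to 0.13 for Lepr, -0.40 to 0.08 for Pck1, -0.88 to 0.18 for G6pc, -0.02 to 0.38 for Angptl4, -0.78 to 2 for Fgf21, -0.43 to 0.49 for Ucp2 and -0.28 to 1.09 for Cyp7a1. For PGZ versus DLE they were -0.01 to 0.26 for Srebf1, -0.11 to 0.53 for Fgf21, -1.01 to 0.05 for Cyp4a14, -1.74 to 3.45 for Saa1, -1.13 to 2.54 for Lcn2, -0.23 to 0.26 for Gpam and -1 to 0.22 for Saa3. Gpam was also 0.01 with RLE scaling, 0.02 with upper-quartile scaling and 0.01 with DESeq2. The cause was not tested. No paired analysis was possible because the groups share no replicate numbers.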
